A study of Homo sapiens with 4 samples.

Results

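The nuclear genes of the respiratory chain and ATP synthase were taken from the count table by name. The names were the NDUF, SDH, UQCR, COX5 to COX8 and ATP5 symbols together with CYC1 and CYCS. COX4I1 fell outside the name patterns and is reported separately below. Of 35767 rows, 113 carried such a name, 23 of them were pseudogenes and were left out, and 90 genes remained. They comprised 37 subunits of complex I, 4 of complex II, 10 of complex III, cytochrome c itself, 14 of complex IV, 16 of complex V and 8 assembly factors of complex I. Of the 90 genes, 87 had enough counts to be tested. COX6A2, COX7A1 and COX7B2 did not, with at most 4 counts in any library.

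RNA was sequenced from SAS cells, an established line from a human tongue squamous cell carcinoma, in 2 libraries labelled siControl and 2 labelled siNAT10. The siControl cells carry the genotype label wild type and were treated with a control siRNA. The other cells are labelled as a knockdown, by siRNA, of NAT10, the enzyme that places acetylcytidine on RNA, although the genotype label of siNAT10 replicate 2 names NAT11, a name of NAA40. The series title puts the comparison in a study of NAT10, acetylation of DDIT4 mRNA and growth of head and neck carcinoma cells. All libraries come from 1 cell line, the labels give no time after transfection, and they name biological replicates without naming separate cultures. Spread between replicates may thus be technical, and p-values speak only of that spread.

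Most respiratory complexes are built from subunits of the nuclear and the mitochondrial genome. Complexes I, III and IV pump protons across the inner mitochondrial membrane as electrons pass from NADH or ubiquinol to oxygen, complex II feeds electrons from succinate, cytochrome c carries them from complex III to complex IV, and complex V uses the proton gradient to make ATP. Complex I joins a core that does the catalysis to a larger shell of accessory subunits, and dedicated assembly factors, absent from the finished enzyme, help to build it. Nuclear genes for these proteins are known targets of the transcription factors NRF1, GABP and YY1 and of the coactivator PGC-1α.

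The mRNA that the siRNA was directed at was not lower. NAT10 (chromosome 11, 34105602 to 34147670, GRCh38) stood at 240.4 and 231 CPM in siControl replicates 1 and 2 and at 253 and 248 CPM in siNAT10 replicates 1 and 2. CPM are counts relative to the library total, scaled with TMM factors. Fitted by edgeR's quasi-likelihood model, the log2 fold change of siNAT10 over siControl was 0.09 with an SE of 0.06 (n = 2 in each group, adjusted p = 0.293), and its 95% interval reached from -0.05 to 0.22. As the knockdown was not seen in the counts, all directions below follow the labels of the libraries and nothing else. NAA40 was at 22.1 and 18.8 against 18.6 and 18.2 CPM (adjusted p = 0.255).

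Library totals ran from 30794757 to 36341785 counts, and 3 counts corresponded to 0.0825 to 0.0974 CPM. Summed markers of squamous epithelium were at 1079.7 to 1109 CPM in siControl and 814 to 861 CPM in siNAT10, a sum over 7 genes. KRT17 (822 and 866 against 543 and 586 CPM), KRT14 (4.04 and 4.12 against 1.97 and 1.86 CPM) and EPCAM (7.41 and 8.35 against 3.81 and 4.13 CPM) were called lower. SFN was higher, at 244 and 228 against 263 and 267 CPM (log2 fold change 0.17, edgeR adjusted p = 0.0451), a call lost in 6 of 12 alternatives, among them library totals alone (0.532), without siControl replicate 2 (0.158), without siNAT10 replicate 1 (0.148) and without siNAT10 replicate 2 (0.227). The basal keratin gene KRT5 was at no more than 0.202 CPM. Markers of other cell types summed to 45.5 to 47.5 against 51.3 to 52.3 CPM for leukocytes (2 genes, nearly all CD68), 27.4 to 29.2 against 20.7 to 21.8 for fibroblasts (4 genes, nearly all COL1A1), 2.52 to 3.02 against 3.35 to 3.76 for endothelium (3 genes) and 0.431 to 0.473 against 0.925 to 1.49 for striated muscle (4 genes). The endothelium genes, all at low levels, did not move together. PECAM1 fell (log2 fold change -2.29, edgeR adjusted p = 8.26e-04), VWF rose (3.04, adjusted p = 2.31e-04) and CDH5 was not called (0.57). None of these markers was at 0 in all 4 libraries, and the part of these shifts in the results below was not tested. Scaling by library totals alone moved the median of all tested genes from -0.01 to -0.12 on the log2 scale. Fewer cells of a kind and less RNA per cell cannot be told apart in such bulk RNA.

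Respiratory genes were mostly higher in the libraries labelled siNAT10. Of the 87 tested, 51 were called higher (58.6%) and 4 lower (4.60%) by edgeR's quasi-likelihood test at an adjusted p under 0.05, where 40.4% of all 20098 tested rows were called, 19.7% higher and 20.7% lower. Among the 13899 protein-coding rows tested, these shares were 22.8% and 24.0%. The shift was moderate: the median log2 fold change was 0.32, with a range from -1.53 for COX6B2 to 0.97 for ATP5F1, and the medians of all rows and of protein-coding rows were -0.01 and -0.02. In 61 genes both siNAT10 libraries lay above both siControl libraries and in 8 they lay below, against 34.1% and 35.4% of all tested rows. With library totals alone, 39 were higher and 8 lower, beside 13.4% and 27.9% of all rows, and the median was 0.21, which is 0.33 above the median of all rows. DESeq2 called 46 higher and 4 lower, where it called 15.8% and 15.4% of all rows.

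**Figure D1:**
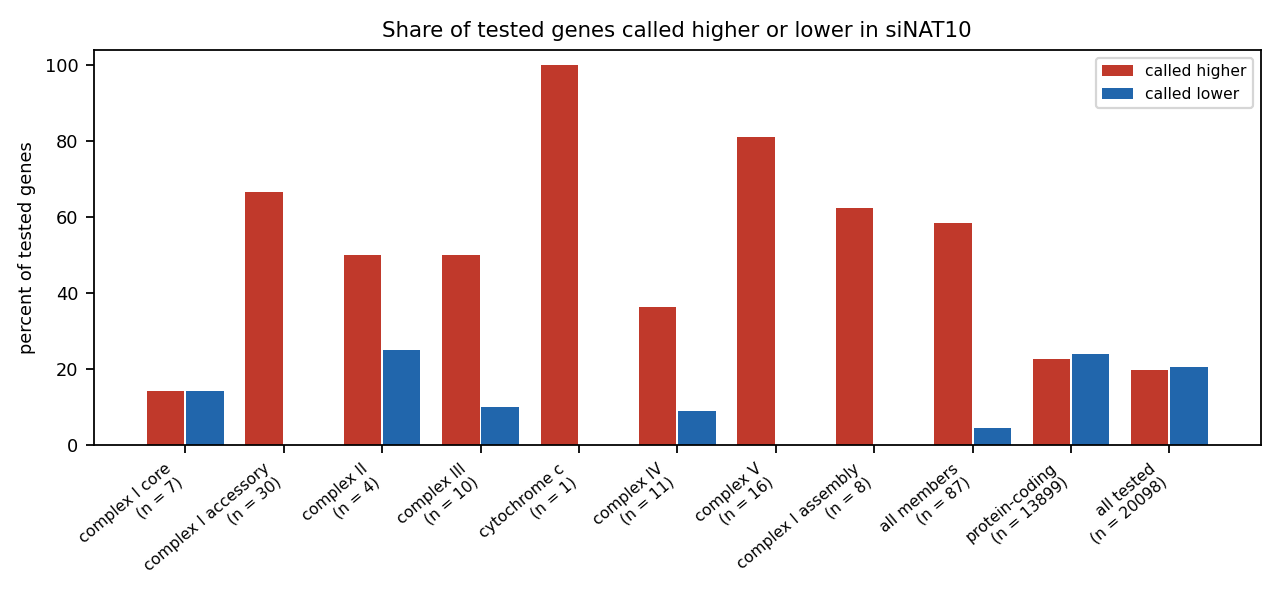
Bars give the percent of tested genes called higher (red) or lower (blue) in the libraries labelled siNAT10 for each class, for all 87 respiratory genes, for protein-coding rows and for all 20098 tested rows, with the number tested under each. Complex V and the accessory subunits of complex I have the tallest red bars among classes of more than 1 gene (81.2% and 66.7%), and the complex I core stands near the shares of all rows.

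The classes differed in how many members were called, a difference that was not itself tested. The accessory subunits of complex I had 20 of 30 higher and none lower, and complex V had 13 of 16 higher and none lower. In complex II the calls were 2 higher and 1 lower of 4, in complex III 5 higher and 1 lower of 10, and in complex IV 4 higher and 1 lower of 11. The 7 nuclear core subunits of complex I had 1 higher and 1 lower (14.3% each way). Of all tested rows, 19.7% were called higher and 20.7% lower. The class medians on the log2 scale ran from 0.10 in the complex I core, 0.14 in complex IV and 0.16 in complex III through 0.27 in complex II to 0.36 in the accessory subunits, 0.37 in complex V and 0.39 in the assembly factors.

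The libraries of a group were not equal in every class. Relative to the siControl mean, the median gene of complex IV was at -0.12 in siControl replicate 1 and 0.11 in replicate 2 on the log2 scale, and at 0.10 and 0.16 in siNAT10 replicates 1 and 2. The siNAT10 libraries therefore stood well above siControl replicate 1 but close to replicate 2 in that complex. Complex III was alike, at -0.10 and 0.10 against 0.16 and 0.23. For complex V the medians were -0.04 and 0.04 against 0.30 and 0.40, and for the accessory subunits of complex I -0.01 and 0.01 against 0.38 and 0.42, so that both siNAT10 medians lay clear of both siControl medians. Leaving out siControl replicate 2 raised the calls in complex IV from 4 to 7, and leaving out siControl replicate 1 lowered those in complex III from 5 to 2, as did leaving out siNAT10 replicate 2.

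**Figure D2:**
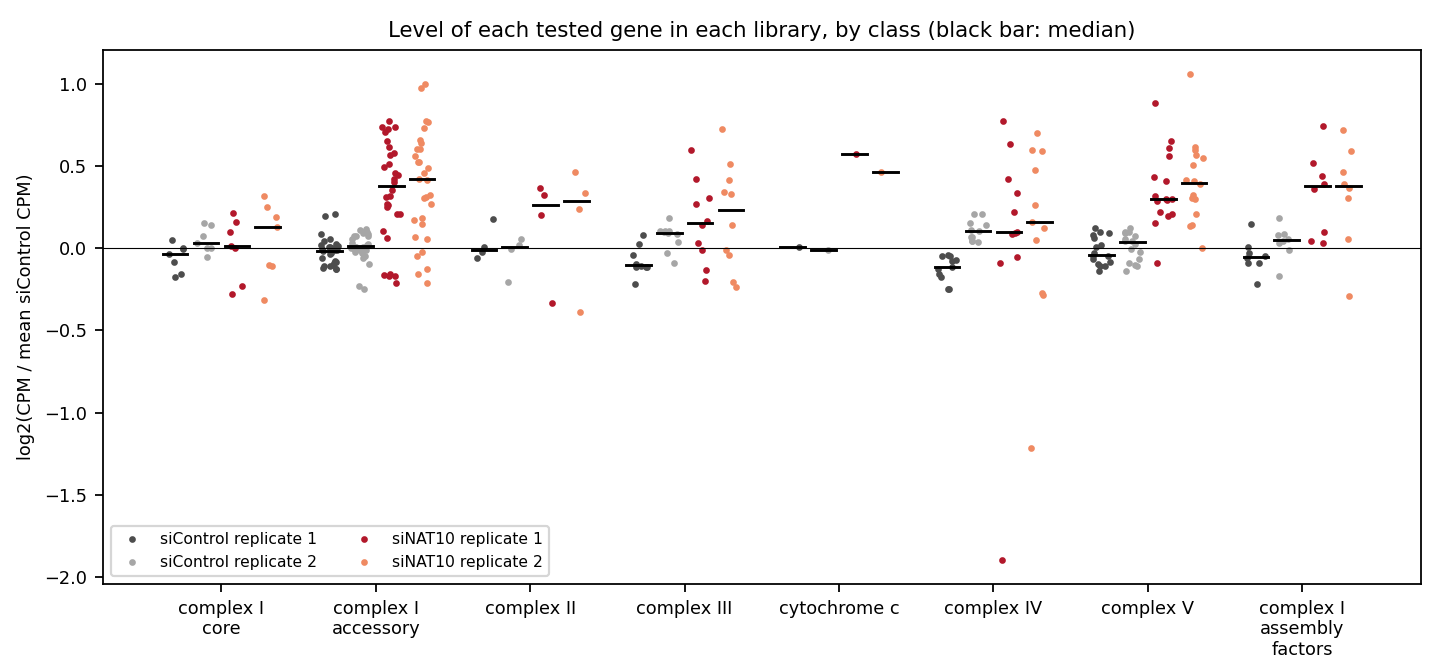
Each point is 1 tested gene in 1 library, as log2 of its CPM over the mean siControl CPM of that gene, grouped by class, with a black bar at the median. The siNAT10 medians of complex V (0.30 and 0.40) and of the complex I accessory subunits (0.38 and 0.42) stand apart from the siControl medians, while those of complex IV (0.10 and 0.16) lie beside siControl replicate 2 (0.11).

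The core of complex I holds the flavin and iron-sulfur clusters that take electrons from NADH to ubiquinone, and its nuclear genes moved little. NDUFV1, the flavin-binding subunit that oxidizes NADH, was at 79.7 and 83.6 CPM in siControl and at 87.4 and 89.3 CPM in siNAT10 (log2 fold change 0.11 ± 0.07, edgeR adjusted p = 0.193). NDUFS1, the largest iron-sulfur subunit, was at 82.8 and 77.3 against 81.0 and 74.4 CPM (-0.04 ± 0.07, adjusted p = 0.676), so the groups overlapped. Its exons overlap those of EEF1B2, which rose from a mean of 198 CPM in siControl to 287 CPM in siNAT10 (0.54). They also overlap AC007383.4 (-0.20) and GCSHP3 (0.15), neither of them called. Reads cannot be told apart where exons are shared.

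NDUFS3 (chromosome 11, 47565336 to 47584562), a subunit of the peripheral arm, had 81.5 and 100.4 CPM in siControl and 77.6 and 73.2 CPM in siNAT10, and fell by 0.27 on the log2 scale (SE 0.08, edgeR adjusted p = 0.0151). Without siControl replicate 2, the library that was highest, its value was -0.11 (adjusted p = 0.277), and without siNAT10 replicate 2 it was -0.23 (adjusted p = 0.130). Its exons overlap those of PTPMT1 and CELF1, which also fell (-0.38 and -0.26), and of KBTBD4, which rose (0.57), so reads of these genes cannot be told apart where exons are shared. The iron-sulfur subunits NDUFS8 (0.27 ± 0.13), NDUFV2 (0.10 ± 0.08, overlapping RP11-21J18.1) and NDUFS7 (-0.19 ± 0.12, overlapping AC005329.7 and LLNLR-307A6.1) were not called, with adjusted p from 0.101 to 0.375. NDUFS8 passed without siControl replicate 2 (0.44, adjusted p = 0.0113), and NDUFS7 passed as lower with library totals alone (-0.30, adjusted p = 0.0400).

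Accessory subunits of complex I, which surround the core and help to hold it together, rose in 20 of 30 genes. NDUFC2 (chromosome 11, 78068304 to 78080219), a subunit of the membrane arm, was at 11.9 and 11.7 CPM in siControl and at 19.5 and 23.2 CPM in siNAT10 (0.86 ± 0.11, edgeR adjusted p = 3.68e-06). NDUFC2-KCTD14, a read-through gene sharing its exons, moved alike (0.87), so both are 1 signal. NDUFB3 (chromosome 2, 201071433 to 201085750, overlapping FAM126B, which was at -0.04), also of the membrane arm, was at 10.4 and 10.3 against 17.3 and 17.2 CPM (0.74 ± 0.11, adjusted p = 1.75e-05). The libraries of a group lay close together in NDUFB3, and the groups were far apart.

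NDUFB4 (chromosome 3, 120596309 to 120602500) stood at 5.80 and 5.82 CPM in siControl and 9.48 and 9.89 CPM in siNAT10 (0.74 ± 0.13, edgeR adjusted p = 1.98e-04), with 12 pseudogenes carrying its name. The largest value in the class belonged to NDUFA7 (chromosome 19, 8308768 to 8321396), a subunit of the matrix arm with few reads, at 1.60 and 1.64 against 2.77 and 3.25 CPM (0.89 ± 0.23, adjusted p = 0.00441). Its row overlaps RPS28, a ribosomal protein gene that also rose (0.54), and CTD-2550O8.5 (0.29, adjusted p = 0.231).

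The promoter of NDUFB4 held 1 full NRF1 site, which reads GCGCA followed at once by its reverse complement. It is printed because this palindrome occurred in few promoters of the genome. The 250 bases before its start (chr3:120596086-120596335, plus strand, GRCh38.p14, RefSeq) are shown in lower case with the site, and the base after it that completes an overlapping short site TGCGCA, in capitals.
NDUFB4: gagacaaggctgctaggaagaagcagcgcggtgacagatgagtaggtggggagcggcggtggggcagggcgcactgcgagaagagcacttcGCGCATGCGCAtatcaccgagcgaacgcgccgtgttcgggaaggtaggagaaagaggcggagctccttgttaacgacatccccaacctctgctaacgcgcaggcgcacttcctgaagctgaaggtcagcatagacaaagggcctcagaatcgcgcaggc

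Other membrane-arm subunits in the accessory class rose by smaller steps. NDUFB9 (0.70, overlapping TATDN1, which rose by 0.48, and MTSS1), NDUFB6 (0.68, overlapping TOPORS-AS1), NDUFB2 (0.53, with NDUFB2-AS1 on the other strand among its overlaps), NDUFB5 (0.52), NDUFB8 (0.37, 2 overlapping rows), NDUFB1 (0.35) and NDUFB7 (0.33) were called, with edgeR adjusted p from 4.24e-07 to 0.00716. NDUFB10 and NDUFB11 of the same arm went the other way without passing the test. NDUFB10 was at 108 and 128 against 105 and 106 CPM (-0.16 ± 0.08, adjusted p = 0.105) and NDUFB11 (overlapping RBM10) at 44.3 and 49.5 against 42.1 and 40.6 CPM (-0.18 ± 0.08, adjusted p = 0.0796). Both siNAT10 libraries lay below both siControl libraries in these genes. Both passed as lower with library totals alone (-0.27, adjusted p = 0.00708 for NDUFB10, and -0.29, adjusted p = 0.00596 for NDUFB11) and without siControl replicate 1 (-0.28 and -0.26). NDUFB7 missed the threshold without siControl replicate 1 (adjusted p = 0.0529), and NDUFB1 without siNAT10 replicate 2 (0.180) or with library totals alone (0.0563).

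Among accessory genes with NDUFA and NDUFS names, 9 more were called higher. NDUFS5, on the intermembrane side of the membrane arm, had 451 and 456 CPM in siControl and 674 and 717 CPM in siNAT10, the highest counts of the class. NDUFA5, of the arm that reaches into the matrix, was at 70.9 and 72.7 against 113 and 112 CPM. NDUFS5 and NDUFA5 have 6 and 12 named pseudogenes, so copies may share their reads. NDUFA9 (0.52, 2 overlapping rows), NDUFA11 (0.49, 2 overlapping rows), NDUFA12 (0.41), NDUFA10 (0.34), NDUFS4 (0.32), NDUFS6 (0.23) and NDUFA6 (0.21, overlapping NDUFA6-AS1) were also called, with edgeR adjusted p up to 0.0237. Of these, NDUFA11 missed the threshold without siControl replicate 2 (adjusted p = 0.0594) and NDUFA10 without siNAT10 replicate 2 (0.0534). NDUFS6 missed it with library totals alone (0.12, adjusted p = 0.173), without siControl replicate 1 (0.0542) and without siNAT10 replicate 1 (0.131). NDUFA6 missed it in the same settings (0.270, 0.164 and 0.176, with values down to 0.10) and without siNAT10 replicate 2 (0.0541).

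The remaining 8 accessory genes did not pass the test. NDUFAB1, the mitochondrial acyl carrier protein that also serves fatty acid synthesis, was at 15.8 and 17.1 against 14.7 and 15.1 CPM (-0.14 ± 0.10, edgeR adjusted p = 0.301). NDUFA13 was at 48.3 and 53.7 against 54.8 and 56.5 CPM (0.13 ± 0.08, adjusted p = 0.206, 2 overlapping rows). NDUFC1 (0.39, overlapping MGARP), NDUFA3 (0.35, overlapping TFPT) and NDUFA2 (0.26, 2 overlapping rows) had wide errors, from 0.13 to 0.25, at levels of 1.70 to 11.1 CPM. The values of NDUFV3 (0.01), NDUFA1 (-0.07, overlapping RNF113A) and NDUFA8 (-0.09) were small and their groups overlapped.

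**Figure D3:**
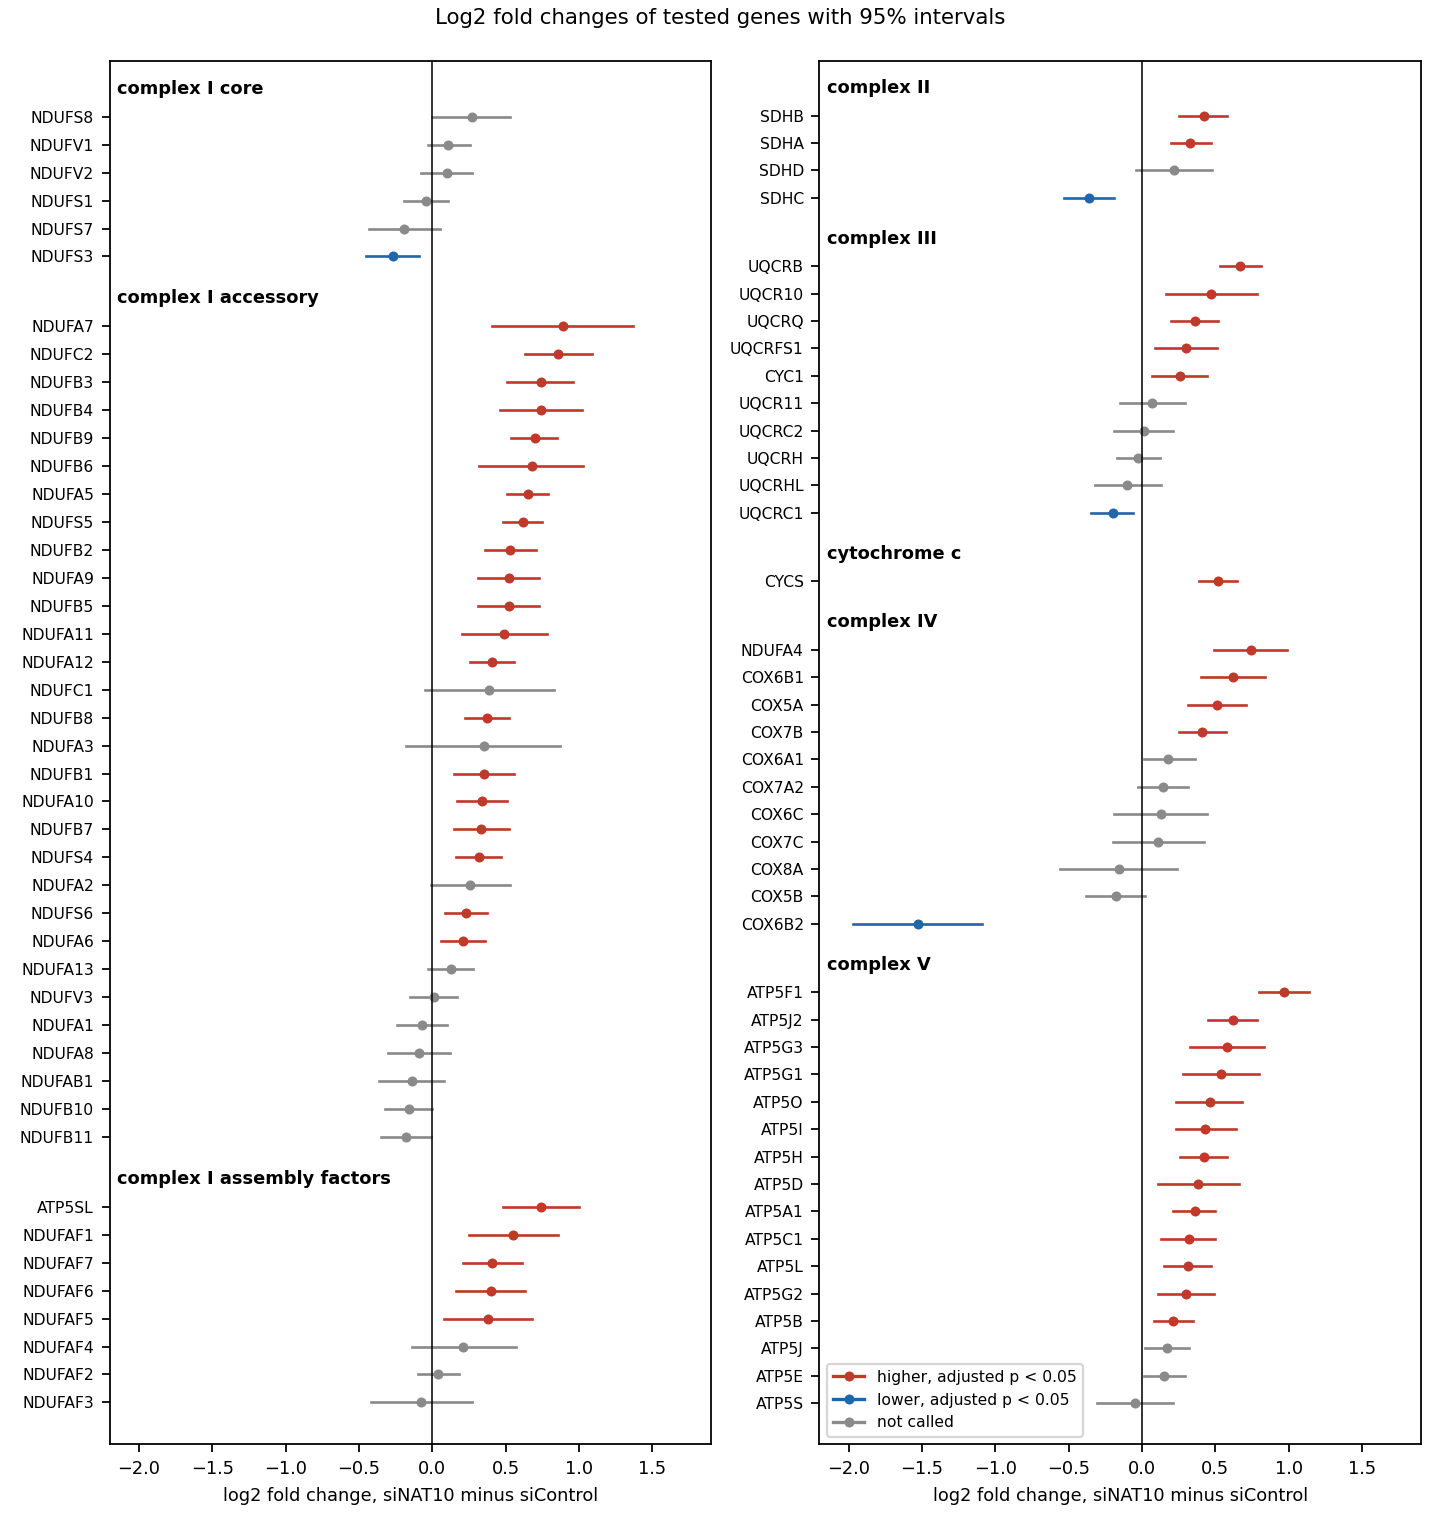
Each point is the log2 fold change of 1 tested gene, siNAT10 minus siControl, with its 95% interval as a line, ordered by class, for the genes reported here, in red where called higher, blue where called lower and grey where not called. The accessory subunits of complex I run from 0.89 down to -0.18, and COX6B2 (-1.53) lies far to the left of all others.

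Complex II has only 4 subunits, all nuclear, and they did not move together. SDHA (chromosome 5, 218241 to 256700), the flavoprotein that oxidizes succinate, was at 528 and 573 CPM in siControl and at 689 and 697 CPM in siNAT10 (0.33 ± 0.06, edgeR adjusted p = 3.59e-04). SDHB (chromosome 1, 17018722 to 17054170), the iron-sulfur subunit that passes the electrons on, was at 35.5 and 35.2 against 45.7 and 48.8 CPM (0.42 ± 0.08, adjusted p = 2.67e-04). Both catalytic subunits thus rose with no overlap between groups, and SDHA has 3 named pseudogenes.

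The membrane anchors of complex II, which hold its haem and help to bind ubiquinone, differed from the catalytic pair and from each other. SDHC (chromosome 1, 161314257 to 161375340) was at 39.4 and 40.6 CPM in siControl and 31.8 and 30.6 CPM in siNAT10, and fell by 0.36 on the log2 scale (SE 0.08, edgeR adjusted p = 0.00142). SDHC overlaps CFAP126, which fell by 0.67, and has 4 named pseudogenes. SDHD (chromosome 11, 112086773 to 112120013) was at 14 and 10.7 against 14.2 and 14.6 CPM (0.22 ± 0.12, adjusted p = 0.180), with siControl replicate 2 alone clearly lower. Without siControl replicate 1 the difference of SDHD was called (0.42, adjusted p = 0.00959), and its row overlaps AP002884.2 and TIMM8B, which were at 0.12 and 0.15 and not called. The calls of SDHA, SDHB and SDHC were kept in every alternative setting that tested them.

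Promoters of SDHA, SDHB and SDHD, the genes of complex II with an entry in the table, are shown because each holds a searched NRF1 pattern. Each run is the 250 bases before the start in the RefSeq promoter table (GRCh38.p14), 5′ to 3′ on the strand of the gene, with the short NRF1 site TGCGCA, the full NRF1 site and the ETS core CCGGAAG, on either strand, in capitals. SDHA lies at chr5:218070-218319 on the plus strand, SDHB at chr1:17054033-17054282 on the minus strand and SDHD at chr11:112086623-112086872 on the plus strand.
SDHA: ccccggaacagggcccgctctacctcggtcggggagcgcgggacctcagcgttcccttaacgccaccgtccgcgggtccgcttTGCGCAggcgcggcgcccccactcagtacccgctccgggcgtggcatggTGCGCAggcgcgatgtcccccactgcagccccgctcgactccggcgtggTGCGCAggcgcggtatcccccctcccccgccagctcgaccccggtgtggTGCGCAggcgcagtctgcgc
SDHB: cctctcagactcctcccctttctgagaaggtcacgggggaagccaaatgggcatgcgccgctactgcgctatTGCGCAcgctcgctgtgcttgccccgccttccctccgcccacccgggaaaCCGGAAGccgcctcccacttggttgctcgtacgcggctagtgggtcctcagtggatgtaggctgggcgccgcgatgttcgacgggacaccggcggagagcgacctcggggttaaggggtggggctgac
SDHD: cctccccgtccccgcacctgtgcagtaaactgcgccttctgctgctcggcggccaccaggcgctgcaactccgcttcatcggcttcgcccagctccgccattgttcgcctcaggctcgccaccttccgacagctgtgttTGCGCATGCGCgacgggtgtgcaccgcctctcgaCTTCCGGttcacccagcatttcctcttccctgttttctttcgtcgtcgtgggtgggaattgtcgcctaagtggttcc

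In the SDHA run the short site TGCGCA occurs 4 times, beginning 167, 118, 69 and 20 bases before the start and each time followed by the letters ggcgc. SDHB holds 1 short site and 1 ETS core. SDHD holds 1 full NRF1 site, with the base before it completing an overlapping short site, and 1 ETS core on the opposite strand. The pattern is thus present upstream of genes that were called higher (SDHA and SDHB) and of one that was not called (SDHD). A match is a description of letters and not evidence of binding.

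In complex III 5 genes rose, among them UQCRB and UQCRQ, and the core protein gene UQCRC1 fell. UQCRB (chromosome 8, 96225920 to 96235634), a small subunit near the ubiquinone site, was at 176 and 169.6 CPM in siControl and 262 and 286 CPM in siNAT10 (0.67 ± 0.07, edgeR adjusted p = 1.83e-07). UQCRQ (chromosome 5, 132866560 to 132868031), another small ubiquinone-binding subunit, was at 119.9 and 139.8 against 160.4 and 173 CPM (0.36 ± 0.08, adjusted p = 7.61e-04). Neither gene's groups overlapped, though UQCRB shares exons with KB-1043D8.6 (0.75) and UQCRQ with GDF9, whose value was the same (0.36).

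UQCRC1 (chromosome 3, 48599002 to 48610976), a core protein related to mitochondrial processing peptidases, was at 245 and 278 CPM in siControl and at 228 and 227 CPM in siNAT10. It fell by 0.20 on the log2 scale (SE 0.07, edgeR adjusted p = 0.0260), which was not called without siControl replicate 2 (-0.11, adjusted p = 0.204), without siNAT10 replicate 1 (adjusted p = 0.130) or without siNAT10 replicate 2 (0.141). Its partner UQCRC2 was at 37.5 and 33.3 against 32.3 and 39.0 CPM (0.01 ± 0.10), with the groups overlapping.

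The redox subunits of complex III, and UQCR10, carried less stable calls. UQCRFS1 (chromosome 19, 29205321 to 29213541), the Rieske iron-sulfur protein, was at 15.6 and 18.1 against 20.3 and 21.2 CPM (0.30 ± 0.10, edgeR adjusted p = 0.0243, overlapping CTB-32O4.2). CYC1 (chromosome 8, 144095027 to 144097525), cytochrome c1, was at 27.3 and 28.9 against 31.6 and 35.6 CPM (0.26 ± 0.09, adjusted p = 0.0272). UQCR10, a small subunit, was at 5.59 and 7.38 against 8.70 and 9.28 CPM (0.47 ± 0.15, adjusted p = 0.0158). All of these missed the threshold with DESeq2 (adjusted p = 0.0668, 0.0624 and 0.0531 in that order), with library totals alone (0.142, 0.202 and 0.0572), without siControl replicate 1 (0.197, 0.0891 and 0.193) and without siNAT10 replicate 2 (0.112, 0.275 and 0.0728).

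UQCRH, the hinge protein between cytochrome c1 and cytochrome c, was at 278 and 318 against 296 and 289.9 CPM (-0.03 ± 0.07, edgeR adjusted p = 0.804). UQCRHL, a near copy of UQCRH elsewhere in the genome, was at 22.0 and 25.4 against 24.2 and 20.1 CPM (-0.10 ± 0.11). Per gene length, UQCRH stood 19.6 and 19.4 times above UQCRHL in the siControl libraries and 18.9 and 22.4 times above it in siNAT10, though reads of such near copies may be misassigned. UQCR11 was at 0.07 ± 0.11 and overlaps AC005943.2. CYCS (chromosome 7, 25120091 to 25125361), cytochrome c, which besides carrying electrons triggers the apoptosome when released, was at 372 and 368 CPM in siControl and 550.2 and 510.3 CPM in siNAT10 (0.52 ± 0.06, adjusted p = 2.62e-06). The rise of CYCS was called in each of the 12 alternative settings, and 40 pseudogenes carry its name.

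Complex IV split between rising, level and falling subunits. NDUFA4 (now COXFA4; chromosome 7, 10931951 to 10940256), first assigned to complex I and now to complex IV, was at 7.98 and 9.32 CPM in siControl and at 14.8 and 14.1 CPM in siNAT10 (0.74 ± 0.12, edgeR adjusted p = 6.02e-05). COX6B1 (chromosome 19, 35648223 to 35658861), on the intermembrane side where cytochrome c docks, was at 10.8 and 11.5 against 17.3 and 16.9 CPM (0.62 ± 0.11, adjusted p = 1.09e-04, 7 named pseudogenes). In both genes the lowest siNAT10 library lay well above the highest siControl library.

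COX5A (chromosome 15, 74919791 to 74938168), on the matrix side, was at 28.8 and 35.4 against 43.1 and 48.4 CPM (0.51 ± 0.10, edgeR adjusted p = 2.75e-04). COX7B, a small membrane subunit, was at 47.6 and 52.4 against 63.3 and 69.7 CPM (0.41 ± 0.08, adjusted p = 2.73e-04). COX5B, the zinc-binding subunit, was at 150.0 and 188 against 159 and 139.8 CPM, and siControl replicate 2 alone stood apart. COX5B was not called (-0.18 ± 0.09, adjusted p = 0.148), and passed as lower with library totals alone (-0.29, adjusted p = 0.0150), with no count filter (adjusted p = 0.0338) and without siControl replicate 1 (-0.33, adjusted p = 7.05e-06).

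The abundant small subunits COX6C and COX7C showed the gap between the siControl libraries most plainly. COX6C was at 335 and 459 CPM in siControl and 422 and 443 CPM in siNAT10 (0.13 ± 0.13, edgeR adjusted p = 0.505), and COX7C at 233 and 320.2 against 295 and 302 CPM (0.11 ± 0.13, adjusted p = 0.566). In both, the siNAT10 values lay between those of the siControl libraries. Without siControl replicate 2 both were called higher (0.37 for COX6C and 0.36 for COX7C), and without siControl replicate 1 the values were -0.09 and -0.10 and not called. COX6A1 (0.18 ± 0.08, overlapping AL021546.6), COX7A2 (0.14 ± 0.08) and COX8A (-0.16 ± 0.19, overlapping AP000721.4) were not called. COX6A1 passed without siNAT10 replicate 1 (0.27, adjusted p = 0.0497) and COX7A2 without siControl replicate 2 (0.22, adjusted p = 0.0490).

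COX6B2, the testis form of the COX6B subunit, moved opposite to COX6B1. COX6B2 (chromosome 19, 55349306 to 55354814) was at 5.41 and 5.77 CPM in siControl and 1.50 and 2.41 CPM in siNAT10, a 2.89-fold lower mean (log2 fold change -1.53 ± 0.21, edgeR adjusted p = 1.03e-05). Both siNAT10 libraries lay below both siControl libraries, and the call was kept in each alternative that tested the gene. CTD-2105E13.6 overlaps it and fell by 1.73, so the rows share a signal. Per gene length, COX6B1 was 8.15 and 8.11 times as high as COX6B2 in the siControl libraries and 47.0 and 28.7 times as high in siNAT10. The muscle forms COX6A2 and COX7A1 and COX7B2 were near 0, with at most 0.116 CPM in any library, from at most 4 counts, so no fold is given.

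Complex V had the most uniform rise, with 15 of 16 genes higher in both siNAT10 libraries than in both siControl libraries, against 34.1% of all tested rows. ATP5F1 (now ATP5PB; chromosome 1, 111448864 to 111462773), the b subunit of the peripheral stalk, was at 54.0 and 46.7 CPM in siControl and at 92.9 and 105 CPM in siNAT10 (0.97 ± 0.08, edgeR adjusted p = 1.72e-08), 1.96-fold higher in the mean. It was the largest rise among the 87 tested genes. WDR77 overlaps it and rose by 0.39, and 7 pseudogenes carry its name.

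The ATP5F1 promoter, of the gene with the largest rise, is printed as the counterpart of those above. None of the motifs searched lay in the 250 bases shown, which leave out the 50 bases after the start. The 250 bases before its start (chr1:111449214-111449463, plus strand, GRCh38.p14, RefSeq) carry no capitals.
ATP5F1: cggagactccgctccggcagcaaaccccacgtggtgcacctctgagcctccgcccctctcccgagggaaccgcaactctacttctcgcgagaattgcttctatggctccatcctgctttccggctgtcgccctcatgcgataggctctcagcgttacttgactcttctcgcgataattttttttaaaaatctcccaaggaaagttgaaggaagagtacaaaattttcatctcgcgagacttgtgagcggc

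Subunits of the membrane sector and stalks, which carry the protons and hold the enzyme together, rose in 9 of 10 genes with a median of 0.45, beside 19.7% of all tested rows called higher. ATP5J2 (now ATP5MF), subunit f, was at 47.4 and 54.7 against 77.9 and 78.5 CPM (0.62 ± 0.08, edgeR adjusted p = 2.93e-06), with PTCD1 (0.50) and the read-through ATP5J2-PTCD1 (0.53) sharing its exons. The genes for subunit c of the proton-driven ring, which encode the same mature protein, all rose. ATP5G3 was at 10.2 and 8.51 against 13.8 and 14.2 CPM (0.58 ± 0.12, adjusted p = 7.44e-04), ATP5G1 at 9.48 and 11.4 against 16.4 and 13.9 CPM (0.54 ± 0.12, adjusted p = 0.00164) and ATP5G2 at 19.9 and 21.2 against 25.3 in both (0.30 ± 0.09, adjusted p = 0.0134).

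The call of ATP5G2 was lost with library totals alone (adjusted p = 0.106), without siControl replicate 1 (0.0653) and without siNAT10 replicate 2 (0.0577), while those of ATP5G1 and ATP5G3 were kept in every alternative that tested them. The OSCP stalk gene ATP5O (0.46, overlapping AP000304.12 at 0.44 and LINC00649 at 0.11) rose too. So did the subunit e gene ATP5I (0.43), which shares 61.6% of its exonic bases with MYL5 (0.39). The subunit d gene ATP5H (0.42, overlapping KCTD2 at 0.27) and the subunit g gene ATP5L (0.31, overlapping RP11-770J1.5 at 0.22) also rose. The edgeR adjusted p of these genes ran from 2.67e-04 to 0.00326. Among these, ATP5I missed the threshold without siNAT10 replicate 2 (adjusted p = 0.0536). ATP5J, coupling factor 6, whose exons overlap GABPA and JAM2, was at 78.3 and 85.2 against 93.7 and 89.9 CPM (0.17 ± 0.07, adjusted p = 0.0654), and passed without siControl replicate 2 (0.23, adjusted p = 0.00988).

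In the catalytic head of complex V, 4 of 5 genes were called higher, beside 19.7% of all tested rows, with a median of 0.32. The difference from the membrane sector and stalks was not tested. ATP5A1 (chromosome 18, 46080248 to 46104334), the alpha subunit, was at 74.0 and 71.6 against 91.0 and 95.4 CPM (0.36 ± 0.07, edgeR adjusted p = 3.50e-04), with HAUS1 overlapping it. ATP5B (chromosome 12, 56638175 to 56646068), the beta subunit that makes ATP, was at 273 and 290.2 against 328 and 326 CPM (0.21 ± 0.06, adjusted p = 0.0112). The rise of ATP5B was not called with library totals alone (0.10, adjusted p = 0.205), without siNAT10 replicate 1 (0.0808) or without siNAT10 replicate 2 (0.0803).

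The central stalk genes were ATP5C1, ATP5D and ATP5E. ATP5C1, the gamma subunit, was at 37.4 and 32.7 against 40.6 and 46.8 CPM (0.32 ± 0.09, edgeR adjusted p = 0.00853), and ATP5D, the delta subunit, at 6.93 and 8.03 against 10.1 and 9.39 CPM (0.38 ± 0.13, adjusted p = 0.0264). ATP5C1 missed the threshold with library totals alone (0.0837), without siControl replicate 2 (0.0515) and without siNAT10 replicate 2 (0.150). ATP5D missed it with DESeq2 (0.0889), with library totals alone (0.106), without siControl replicate 1 (0.176) and without siNAT10 replicate 1 (0.134). ATP5E, the epsilon subunit, was at 118 and 123 against 134 and 133 CPM (0.15 ± 0.07, adjusted p = 0.0774, overlapping TUBB1), and passed without siControl replicate 2 (0.18, adjusted p = 0.0402). ATP5S, coupling factor B, counted here outside both sectors, was at 9.30 and 10.4 against 9.25 and 9.86 CPM (-0.05 ± 0.12, 3 overlapping rows).

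Of the 8 assembly factors of complex I that the name patterns matched, 5 were called higher and none lower, beside 19.7% and 20.7% of all tested rows. Of 10 further genes listed with them, 3 were higher and 1 lower, with a median of 0.09. That list holds COA1, also listed for complexes II to V, and ACP1 (-0.07, not called), a phosphatase gene and not an assembly factor. ATP5SL (now DMAC2; chromosome 19, 41431318 to 41440717), which bears an ATP synthase name but serves assembly of the distal membrane arm of complex I, was at 7.22 and 8.16 CPM in siControl and 12.9 and 12.7 CPM in siNAT10 (0.74 ± 0.12, edgeR adjusted p = 7.71e-05). NDUFAF1 was at 5.88 and 7.76 against 9.77 and 10.3 CPM (0.55 ± 0.14, adjusted p = 0.00440). NDUFAF7, a protein methyltransferase, was at 18.4 and 18.2 against 23.5 and 25.3 CPM (0.41 ± 0.09, adjusted p = 0.00168). It overlaps CEBPZ, which rose by 0.48 from a mean of 128 CPM in siControl, and PRKD3, which fell by 0.33.

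NDUFAF6 (10.3 and 11.6 against 14.4 CPM in both, 0.40 ± 0.11, edgeR adjusted p = 0.00830, overlapping RP11-347C18.4) and NDUFAF5, which hydroxylates NDUFS7 (7.77 and 6.22 against 9.51 and 8.67 CPM, 0.38 ± 0.14, adjusted p = 0.0397), rose as well. Without siControl replicate 1, NDUFAF1 and NDUFAF6 missed the threshold (adjusted p = 0.0650 and 0.0616). NDUFAF5 missed it with DESeq2 (0.119), with library totals alone (0.150), without siControl replicate 2 (0.309) and without siNAT10 replicate 1 (0.182). NDUFAF2, at 173 and 185 against 183 and 186 CPM, was level (0.04 ± 0.07, adjusted p = 0.663). NDUFAF4 (0.21 ± 0.17) and NDUFAF3 (-0.08 ± 0.16, overlapping DALRD3) were not called.

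Levels within a complex were far from equal, although its subunits are mostly needed in equal numbers. On the scale of siControl CPM per kb of gene length, levels of the 87 tested genes ran from 0.804 for NDUFA3 to 828 for NDUFS5, a 1029-fold range with a median of 10.9. Within complex II they ran from 2.83 for SDHC to 65.6 for SDHA, a 23.2-fold range. The range was 43.7-fold in complex III (4.85 for UQCRFS1 to 212 for UQCRH), 94.8-fold in complex IV (1.46 for COX6B2 to 139 for COX7C) and 139-fold in complex V (0.873 for ATP5S to 121 for ATP5B). COX6B2 is a testis form and ATP5S was counted outside both sectors, and both set the lower end of their complex. Gene length in the table covers all annotated exons, so a gene with long exons seldom used has a low value on this scale. Against these ranges, the differences between siNAT10 and siControl were small.

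**Figure D4:**
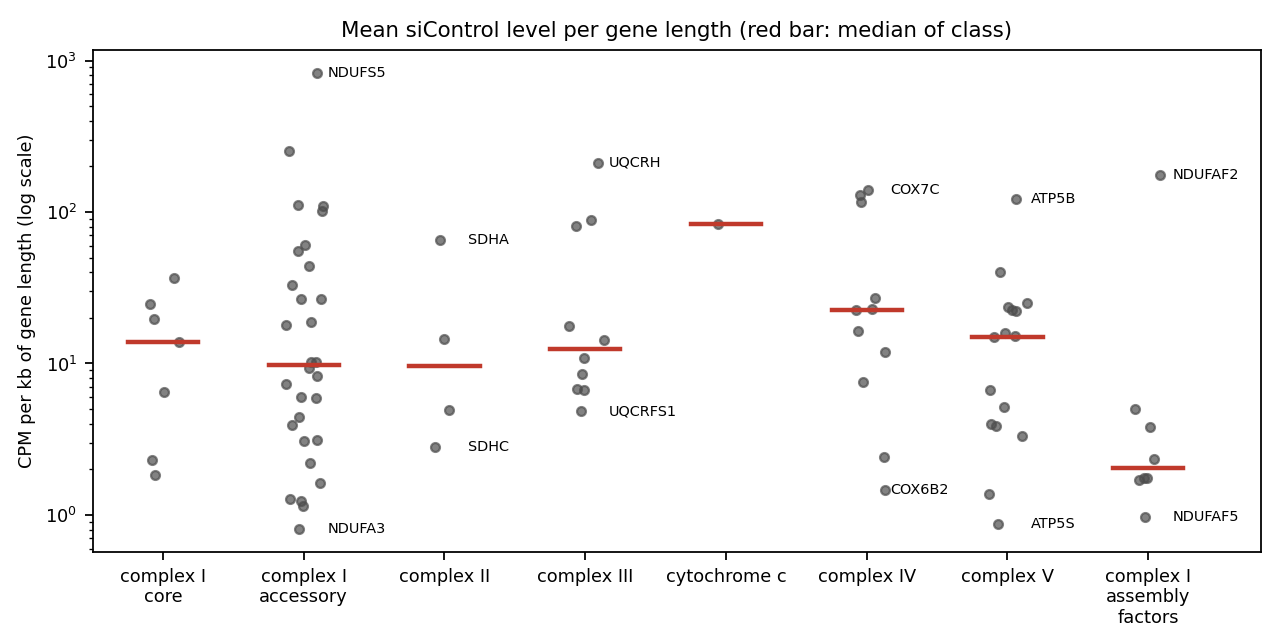
Each point is the mean level of 1 tested gene in the 2 siControl libraries, as CPM per kb of gene length on a log axis, by class, with a red bar at the class median. Levels span from 0.804 (NDUFA3) to 828 (NDUFS5), and in the assembly factors NDUFAF2 (176) stands far above the others.

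Features that the names did not use gave little separation among the genes. Of the 44 tested genes whose exons overlap another row, 24 were higher and 3 lower with a median log2 fold change of 0.33, and of the 43 without overlap 27 were higher and 1 lower with a median of 0.32. The 46 tested genes with named pseudogenes and the 41 without both had a median of 0.32. By gene length the shares were alike too. Of 23 genes under 1500 bases, 13 were higher, where 21.5% of protein-coding rows of that length were, and of 14 genes of at least 6000 bases, 9 were higher, against 22.9%.

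The level of a gene went with the share called among protein-coding rows. Among rows with a mean of at least 200 CPM, 48.9% were higher and 18.5% lower, and the 10 respiratory genes there had 6 higher and 1 lower, a share near this background. Under 10 CPM, 11.1% of protein-coding rows were higher, against 8 of the 16 respiratory genes. From 10 to 50 CPM the share was 24.0%, against 23 of 36 respiratory genes. From 50 to 200 CPM it was 35.5%, against 14 of 25 respiratory genes, whose median log2 fold change was 0.21.

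RefSeq promoter windows of 300 bases were matched for 73 of the 90 genes, the others including NDUFC2, NDUFB9, NDUFS5, NDUFB5, SDHC, UQCRB, CYC1, UQCRHL, COX6C, COX7A1, ATP5J2, ATP5G3, ATP5D, ATP5B, ATP5S and NDUFAF6. A window holds the 250 bases before the start, the part printed above, and 50 bases after it, which the printed runs leave out. At least 1 window held the full NRF1 site in 5 genes (6.85%), against 1.99% of the 15843 protein-coding genes in the same table, and the short site TGCGCA in 22 (30.1% against 12.7%). The ETS core CCGGAAG, read on both strands, was found in 20 genes (27.4% against 16.5%) and the YY1 core AAGATGGC in 12 (16.4% against 4.66%). Letters of the short site can overlap those of the full site, as in NDUFB4, without lying inside it. Among the 39 matched genes called higher, 11 held the short site, 8 the ETS core and 8 the YY1 core, and among the 32 that were tested and not called higher the counts were 11, 12 and 4. These are descriptions of letters in the windows, with no test.

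Transcription factors and coactivators of respiratory genes went mixed ways. Of 13 measured, 3 were called higher and 1 lower, beside the 19.7% and 20.7% of all tested rows. PPARGC1A, which encodes PGC-1α, was at 31.0 and 30.4 CPM in siControl and 13.0 and 12.8 CPM in siNAT10 and fell by 1.25 on the log2 scale (SE 0.09, edgeR adjusted p = 4.19e-09), with no overlap between groups. Its relative PPRC1 was at 45.6 and 44.7 against 52.1 and 53.3 CPM (0.22 ± 0.07, adjusted p = 0.0212), a call lost in 4 alternatives, with library totals alone (0.248), without siControl replicate 2 (0.0507), without siNAT10 replicate 1 (0.0670) and without siNAT10 replicate 2 (0.128).

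TFAM, which packages and transcribes mitochondrial DNA, was at 36.3 and 36.6 against 41.8 and 42.3 CPM (0.21 ± 0.08, edgeR adjusted p = 0.0408), and TFB2M, the mitochondrial transcription initiation factor, at 19.0 in both against 24.1 and 23.8 CPM (0.34 ± 0.09, adjusted p = 0.00658). The factors whose motifs were searched were not called, with values of -0.03 for NRF1, 0.09 for GABPA (overlapping ATP5J) and 0.02 for YY1. TFB2M was not called with library totals alone (adjusted p = 0.0582). TFAM was called in 4 of 12 alternatives, and was at 0.09 with library totals alone and between 0.20 and 0.22 without any 1 library (adjusted p from 0.0664 to 0.162).

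The genes of the mitochondrial genome that complete the same complexes were higher as well. Of 13 mRNAs, 11 were called higher and none lower with a median of 0.70, and all 13 were above both siControl libraries in both siNAT10 libraries. Of all tested rows, 19.7% were called higher and 34.1% lay above without overlap. Each of the 13 had over 200 CPM in every library, and 48.9% of protein-coding rows with a mean of at least 200 CPM were higher. MT-ND4 and MT-ND2, core subunits of complex I, were at 2394 and 2185 against 4652 and 5524 CPM (1.15 ± 0.08, edgeR adjusted p = 6.71e-10) and at 918 and 849 against 1641 and 2030.0 CPM (1.06 ± 0.08, adjusted p = 2.37e-08). MT-CO2, a catalytic subunit of complex IV, was at 1.09 ± 0.08. The nuclear core subunits of complex I had a median of 0.10, and its difference from the mitochondrially encoded mRNAs was not tested. The 2 genes not called were MT-ND4L (1.73 ± 0.39, adjusted p = 0.0843), which overlaps MT-ND4 and whose siControl libraries lay far apart (1288 and 766 CPM), and MT-ATP6 (0.10 ± 0.06, adjusted p = 0.249), which overlaps MT-ATP8 and MT-CO3. MT-ND4L was called with DESeq2 (adjusted p = 1.21e-04), with the replicate number as a block (1.77) and without either siControl library (2.15 without replicate 1 and 1.40 without replicate 2).

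Among subunits and regulators outside the name patterns, 2 of 6 were higher and 2 lower (33.3% each way, beside 19.7% and 20.7% of all tested rows). The complex V genes USMG5 (0.48 ± 0.11, edgeR adjusted p = 0.00210, overlapping TAF5) and C14orf2 (0.37 ± 0.08, adjusted p = 0.00135) rose, and ATPIF1, the inhibitor of the reverse reaction of complex V, was at 557 and 658 against 533 and 530.3 CPM and fell by 0.19 (adjusted p = 0.0411). The fall of ATPIF1 was not called with DESeq2 (0.0717), without siControl replicate 2 (-0.07, adjusted p = 0.458) or without either siNAT10 library (0.142 and 0.175). NDUFA4L2, the paralog of NDUFA4, was at 2.73 and 3.26 against 0.896 and 0.542 CPM (-2.03 ± 0.29, adjusted p = 1.45e-05), with SHMT2 overlapping it. Per gene length, NDUFA4 was 2.31 and 2.26 times as high as NDUFA4L2 in siControl and 13.0 and 20.5 times as high in siNAT10. COX4I1, the main form of subunit 4 of complex IV, was at 641 and 688 against 718 and 750.1 CPM (0.14 ± 0.06, adjusted p = 0.0823, overlapping EMC8), and passed without siControl replicate 2 (0.20, adjusted p = 0.00904).

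Of 37 assembly and expression factors of complexes II to V, 14 were higher (37.8%) and 5 lower (13.5%) with a median of 0.06. Of the 10 genes listed for complex I beyond the name patterns, 3 were higher and 1 lower. Of all tested rows, 19.7% were higher and 20.7% lower. COA1 (0.29 ± 0.11, edgeR adjusted p = 0.0464) stands in both lists and is counted in each, and its call was lost in 8 of 12 alternatives. LRPPRC, which stabilizes mitochondrial mRNAs, was at 146 and 133 against 206 and 202 CPM (0.55 ± 0.07, edgeR adjusted p = 2.38e-06). PET100, of complex IV, and UQCC2, of complex III, rose by 0.62 and 0.53, both with overlapping rows. The 5 that fell, named after their values were seen and each with an overlapping row, were the ATP synthase factors TMEM70 (-0.83) and ATPAF2 (-0.80), the complex III factors UQCC3 (-0.54) and TTC19 (-0.33), and COX19 (-0.53), of complex IV. TTC19 was not called without siNAT10 replicate 1 (-0.22, adjusted p = 0.164). TMEM126B, of the membrane-arm assembly complex, rose by 0.42, and its paralog TMEM126A by 0.44, a call that was lost with DESeq2 (adjusted p = 0.0695), library totals alone (0.0802), without siControl replicate 1 (0.0633) and without siNAT10 replicate 2 (0.316). TMEM186 of the same assembly complex (overlapping ABAT and PMM2) fell from 13.5 and 14.3 to 7.43 and 8.47 CPM (-0.81 ± 0.12, adjusted p = 2.65e-05).

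Of 14 enzymes of the citric acid cycle, which supplies the NADH and succinate, 9 were higher (64.3%, beside 19.7% of all tested rows) and none lower with a median of 0.31. MDH2, which yields NADH from malate, was at 76.8 and 69.5 against 122 and 133 CPM (0.80 ± 0.07, edgeR adjusted p = 5.01e-08). OGDH and FH both rose by 0.64. Among 9 partners of cytochrome c and of haem and iron-sulfur synthesis, 1 was higher and 1 lower (11.1% each way), shares no higher than those of all tested rows (19.7% and 20.7%). ALAS1, the first enzyme of haem synthesis, was at 98.6 and 101 against 74.8 and 78.5 CPM (-0.38 ± 0.07, adjusted p = 1.60e-04). ISCU, the scaffold on which iron-sulfur clusters form, was at 47.3 and 53.9 against 60.0 and 59.2 CPM (0.24 ± 0.08, adjusted p = 0.0206), not called with library totals alone (0.206) or without siControl replicate 1 (0.180), siNAT10 replicate 1 (0.0851) or siNAT10 replicate 2 (0.0717).

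**Figure D5:**
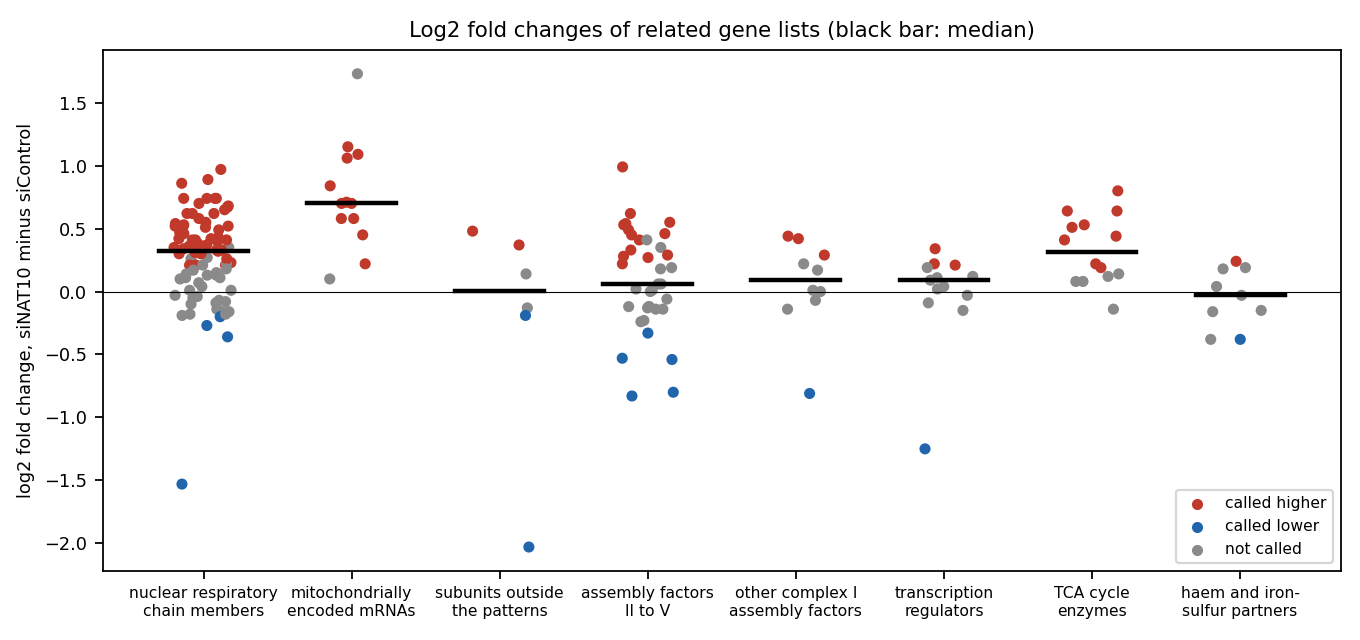
Each point is the log2 fold change of 1 tested gene, siNAT10 minus siControl, for the respiratory genes and the related lists, coloured by call, with a black bar at the list median. The mitochondrially encoded mRNAs sit highest (median 0.70), the citric acid cycle enzymes (0.31) stand beside the nuclear respiratory genes (0.32), and the medians of the other lists lie between -0.03 and 0.09.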

How the data were processed

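SAS cells gave 4 RNA-seq libraries, 2 in each group as their titles name it. The deposited table holds the authors' unnormalized read counts by gene. The submitters' processing notes list GRCh38, featureCounts, STAR 2.5.3a and fastp 0.23.4. The sources used here do not give the annotation release, the strand setting or any use of molecular identifiers. Between 72.0% and 73.5% of counts from 1 to 50 were even, as counting both mates singly gives. Exons shared by rows count for each row, so genes with overlapping rows or copies are uncertain. Halved counts were therefore tried as an alternative.

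Counts were tested in R 4.3.3 with edgeR 4.0.16 (TMM, filterByExpr, robust glmQLFit, glmQLFTest, two-sided) by group over 20098 rows, with Benjamini-Hochberg adjustment at 0.05 and 2 residual degrees of freedom. The test was checked on simulated data. Biotypes and pseudogene names came from GENCODE 29, current symbols and promoters from RefSeq. Exon positions, and the overlaps found from them, came from the deposited count table. Libraries of a group differed beyond sampling noise (chi-square per degree of freedom 7.94 and 4.77). Same-numbered libraries did not deviate together (r = -0.026 across genes, 2 pairs), so numbers were not taken as pairs. The 12 alternatives included DESeq2 1.42.0. Intervals cover counting error and library spread, not PCR copies.

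Genes and lists were chosen with earlier results of these data known. Named genes were NAT10, up to 4 called genes per class with the largest rise and up to 4 with the largest fall, a fixed set of catalytic subunits and isoform pairs, and up to 3 called genes per related list. The remaining members, and NAA40, KRT17, KRT14, EPCAM, SFN, KRT5, CD68, COL1A1, PECAM1, VWF, CDH5, TFAM, NRF1, GABPA, YY1, ATPIF1, COA1, ACP1, MT-ND4L and MT-ATP6, were named after their values were seen, as were overlapping partners. A gene that this rule names is not reported here.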

Additional observations from a re-analysis of the deposited data

How the results depend on the processing

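Across 12 alternatives, between 27 and 54 genes were called higher and no gene turned from one called direction to the other. In every alternative that tested them, 33 genes were higher and 2 (SDHC and COX6B2) lower. With library totals alone, 8 genes were lower and the medians were 0.21 over all genes, 0.22 in complex I, 0.25 in its accessory subunits, -0.01 in its core (with 0 called higher), 0.16 in complex II, 0.05 in complex III, 0.41 for cytochrome c, 0.03 in complex IV, 0.26 in complex V and 0.28 in the assembly factors, with 2 called higher in complex III. Without overlapping rows 43 genes were tested, and 27 were higher and 1 lower, of which 11 in complex I (10 accessory), 2 in complex III, 4 in complex V and 3 among assembly factors were higher, with medians of 0.20 in the complex I core, 0.37 in complex II, -0.01 in complex III and 0.27 in complex IV; fewer genes were tested there. DESeq2 called 2 higher in complex III. With the replicate number as a block, 51 were higher and 4 lower (median 0.32), which changed no count by over 1.5 times. Leaving out 1 library gave 40 to 54 higher and 2 to 7 lower and a median of 0.25 to 0.37, with 0 to 2, 2 to 5, 4 to 7 and 3 to 5 called higher in the complex I core, complex III, complex IV and the assembly factors. Fewer of all tested rows were called without siNAT10 replicate 2 as well, so such counts do not speak of the respiratory genes alone. With 1 library left out, the median over all respiratory genes lay 0.25 to 0.37 above that of all rows. Class medians ran from 0.23 to 0.38 in complex I, 0.02 to 0.14 in its core, 0.36 to 0.43 in its accessory subunits, 0.21 to 0.35 in complex II, 0.47 to 0.58 for cytochrome c, 0.07 to 0.36 in complex IV and 0.32 to 0.39 in the assembly factors. Uncalled genes that changed sign with library totals alone were NAT10 (-0.02), UQCRC2 (-0.10), NDUFV2 (-0.01), UQCR11 (-0.04), NDUFV3 (-0.10), NDUFAF2 (-0.07), COX7C (0.00), MT-ATP6 (-0.02), GABPA (-0.03) and YY1 (-0.09). Others did so when 1 library was left out, with ranges of -0.10 to 0.02 for NDUFS1, -0.12 to 0.07 for UQCRH, -0.24 to 0.03 for UQCRHL, -0.13 to 0.04 for ATP5S, -0.13 to 0.14 for UQCRC2, -0.04 to 0.19 for UQCR11, -0.04 to 0.06 for NDUFV3, -0.29 to 0.10 for NDUFAF3, -0.01 to 0.09 for NDUFAF2, -0.10 to 0.36 for COX7C, -0.09 to 0.37 for COX6C, -0.20 to 0.01 for NDUFA8, -0.21 to 0.07 for NDUFA1, -0.10 to 0.03 for NRF1 and -0.04 to 0.09 for YY1. The cause of these shifts was not tested. Genes under 10 CPM have the widest errors. With 2 libraries per group, an exact test of a single value could not go below 0.333.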
